A study of Mus musculus with 8 samples.

Results

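The messenger RNAs of 5 chemokine ligands of the CXC family, Cxcl9, Cxcl10, Cxcl12, Cxcl14 and Cxcl16, were followed in single cells of the mouse meninges and hippocampus. They are 5 of the 55367 gene symbols in the count tables, and each symbol had a single row in all 4 gene-expression libraries. They were selected on measured values of these libraries, namely their levels by cell class, the number of cells holding them and the contrasts described here. Their own values are therefore a description, with no test. The meningeal libraries held sorted CD45+ CD3+ CD4+ cells in 2 replicates, without treatment. Replicate 1 was Foxp3-GFP and replicate 2 was B6.WT. Foxp3-GFP mice carry a green fluorescent reporter at Foxp3, the gene that defines regulatory T cells. Each meningeal sample was 1 hashtag (an antibody barcode marking cells of a sample) within a library of several samples. For replicate 1 the sequence given for its hashtag differs from the one under that name in the table, and cells were taken by the name. If the sequence is the right one, the cells taken as replicate 1 came from another sample of that library. Which of them is right was not settled here, and this limit holds for every replicate 1 value below. The hippocampal libraries held CD45- Thy1- cells of Foxp3-DTR- and Foxp3-DTR+ mice, 1 library per genotype with 2 mice pooled in each. Foxp3-DTR+ animals express the diphtheria toxin receptor in Foxp3+ cells, and both genotypes had received diphtheria toxin, which kills cells bearing that receptor. The comparison of genotypes asks how non-immune hippocampal cells differ once regulatory T cells have been depleted. The ages of the mice are not given in the sources used here, and neither hippocampal library held a Foxp3 UMI (unique molecular identifier, 1 per captured transcript), 0 of 6863 and 0 of 5691 cells, so the depletion itself was not measured in them.

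CXC chemokines are small secreted proteins that steer cells along gradients through G-protein-coupled receptors. Cxcl9 and Cxcl10 are induced by interferons and attract activated T cells through Cxcr3. Cxcl12 acts on Cxcr4 and is scavenged by Ackr3; in the brain it retains progenitors and shapes vessels. Cxcl14 is a constitutive chemokine whose receptor use is still debated. Cxcl16 is made as a membrane protein, is shed by Adam10 and Adam17, and binds Cxcr6 on T cells.

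Cxcl9 and Cxcl10 lie beside each other on chromosome 5 of GRCm38 (GENCODE release M21), both on the minus strand. Cxcl9 spans chr5:92321347-92328079 and Cxcl10 spans chr5:92346638-92348889, with 18558 bases between them. The other ligands lie apart, Cxcl12 at chr6:117168535-117181367 on the plus strand, Cxcl14 at chr13:56288643-56296551 on the minus strand and Cxcl16 at chr11:70453983-70459984 on the minus strand. Genes on the opposite strand overlap Cxcl10 (Art3) and Cxcl16 (Zmynd15). Art3 had 1 UMI in the 14 Cxcl10-positive cells of the Foxp3-DTR+ library and 0 in the 19 of the Foxp3-DTR- library, so those cells carried almost no Art3. Zmynd15 had 0 and 2 UMIs in the 49 and 41 Cxcl16-positive hippocampal cells. In the meninges Art3 had 12 UMIs in the 160 and 1 UMI in the 81 Cxcl10-positive cells.

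The promoters of Cxcl9 and Cxcl10 are shown because the genes are neighbours and both Cxcl9-positive cells of the hippocampus also held Cxcl10. They are the 250 bases before the RefSeq start on GRCm38.p6, written 5′ to 3′ on the minus strand, chr5:92328080-92328329 for Cxcl9 and chr5:92348890-92349139 for Cxcl10. Capitals mark matches on either strand to an interferon-response motif spelled GAAA, any 2 bases, GAAA or to an NF-kB motif spelled GGG, any 5 bases, CC.
Cxcl9: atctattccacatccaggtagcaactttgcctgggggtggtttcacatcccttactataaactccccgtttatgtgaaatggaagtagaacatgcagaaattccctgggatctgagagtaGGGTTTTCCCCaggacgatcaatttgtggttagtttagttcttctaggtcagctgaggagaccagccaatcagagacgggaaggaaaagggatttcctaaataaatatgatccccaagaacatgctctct
Cxcl10: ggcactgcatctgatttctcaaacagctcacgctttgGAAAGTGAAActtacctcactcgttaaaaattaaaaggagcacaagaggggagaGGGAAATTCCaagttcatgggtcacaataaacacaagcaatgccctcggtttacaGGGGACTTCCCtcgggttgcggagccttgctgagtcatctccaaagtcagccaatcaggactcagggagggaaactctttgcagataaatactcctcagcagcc
The Cxcl10 promoter had 1 match to the interferon-response motif, GAAAGTGAAA, 213 to 204 bases before the start, and 2.98% of 32841 mouse promoters of this length had a match. The Cxcl9 promoter had none. NF-kB motif matches were found 3 times in Cxcl10, including the overlapping GGGGACTTCC and GGGACTTCCC, and 2 times, overlapping, in Cxcl9. This motif is common, at 45.8% of promoters. RefSeq promoters were matched for 4 of the 5 members. The Cxcl12 promoter had 64.4% G and C and 1 NF-kB match, and the Cxcl14 promoter had 59.6% G and C with 1 interferon-response match. The Cxcl9 and Cxcl10 promoters had 44.4% and 48.0% G and C.

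The hippocampal libraries gave 6863 cells (Foxp3-DTR-) and 5691 cells (Foxp3-DTR+), with a median of 6003 and 4509 UMIs. Levels are CPM, the UMIs of a gene per 1000000 UMIs of the class, and ranges in parentheses are exact 95% intervals that cover counting error only. Cells were classed by 1 marker each, with at least 2 UMIs of it and at least 2 times any of the other markers. Cldn5 marked 483 and 357 endothelial cells, Rgs5 194 and 156 pericytes, Aqp4 650 and 683 astrocytes, Pdgfra 671 and 817 oligodendrocyte precursors (OPCs), Mog 3718 and 2584 oligodendrocytes and Dcn 54 and 39 cells called the Dcn class (Foxp3-DTR- first, here and below). A further 1093 and 1055 cells had no class, of which 479 and 582 were astrocytes by a list of 5 markers. The label of these samples names neurons and glia, while neuron markers (Snap25, Syt1, Rbfox3) reached 3 UMIs in 48 and 33 of the cells without a class. In each class but that of Dcn, the 5-gene list of the class stood above every other list. The Dcn class held a fibroblast list (Dcn, Col1a1, Col1a2, Lum, Igf2) at 8563 and 9134 CPM and a pericyte list at 12001 and 12146 CPM, the latter nearly all Vtn, with the pericyte genes Rgs5 and Higd1b at 0. By the 5-gene lists 10 and 10 of its cells were fibroblasts, 15 and 13 pericytes and 27 and 16 unassigned, so it is named by its marker and not by a cell type. Libraries shared few cell barcodes, 554 between the meningeal replicates, 18 between the hippocampal libraries and at most 8 otherwise.

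Cxcl12 was highest in the endothelial, Dcn and pericyte classes. Endothelial cells held 3193 CPM (3085 to 3304) in the Foxp3-DTR- library and 2933 CPM (2805 to 3066) in the Foxp3-DTR+ library. The Dcn class followed with 1183 CPM (1033 to 1349) and 984 CPM (809.9 to 1184), and pericytes with 234 CPM (191 to 285) and 314 CPM (250.1 to 390.3). Each of these steps exceeded the counting intervals in both libraries. Oligodendrocytes, at 7.40 and 11.4 CPM, OPCs, at 7.98 and 2.66 CPM, and astrocytes, at 4.10 and 1.96 CPM, were not separated from each other in both libraries. A Cxcl12 UMI was found in 298 of 483 endothelial cells, 61.7% (57.2 to 66.0), and in 230 of 357, 64.4% (59.2 to 69.4). Oligodendrocytes, which were deeper (medians 7659 and 6396.5 UMIs) than endothelial cells (2012 and 1626), had shares of 3.01% and 3.56%. Their UMIs were uneven, with up to 14 and 20 in a cell and 20% and 28.7% in the 5 richest cells. With each cell thinned to 2000 UMIs the endothelial share was 65.0% of 243 and 62.7% of 126 cells, after 240 and 231 shallower cells were left out. Expression was uneven within the class, since 35.0% and 37.3% of these thinned cells had no Cxcl12 UMI while 25.1% and 21.4% had 10 or more.

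Cxcl12 also differed between vessel zones. Endothelial cells were placed by summed UMIs of arterial (Bmx, Gkn3, Sema3g, Efnb2, Hey1, Mgp), capillary (Mfsd2a, Rgcc, Slc16a1, Tfrc) and venous (Slc38a5, Vcam1, Vwf, Nr2f2, Lcn2) markers. Capillary cells had the highest Cxcl12, 4475 CPM (4295 to 4660) in 230 cells and 3996 CPM (3784 to 4216) in 180 cells. Arterial cells had 3125 CPM (2676 to 3629) in 26 cells and 2571 CPM (2133 to 3072) in 20 cells. Venous cells had 227 CPM (166 to 302) in 88 cells and 710 CPM (553 to 897) in 42 cells, far below the other zones in both libraries and higher in the Foxp3-DTR+ library. Without Vcam1 and Lcn2, a venous list chosen after seeing the data, the venous values were 244 and 709 CPM.

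**Figure D1:**
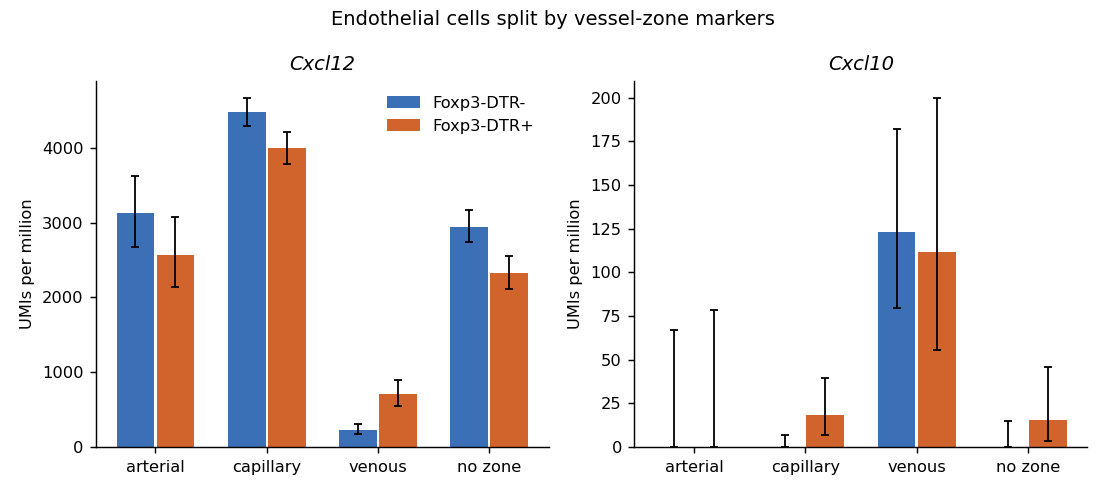
Cxcl12 and Cxcl10 levels (CPM) in endothelial cells of each vessel zone, by library (blue Foxp3-DTR-, orange Foxp3-DTR+). Bars are sums over cells with exact 95% counting intervals. Cxcl12 is highest in capillary cells, at 4475 and 3996, and Cxcl10 is highest in venous cells, at 123 and 112.

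Cxcl14 was highest in astrocytes. It reached 1002 CPM (967 to 1039) and 1109 CPM (1068 to 1150) there, 12.57 and 11.96 times the level of OPCs, the next class. OPCs held 79.8 CPM (70.8 to 89.5) and 92.7 CPM (83.2 to 103), with a UMI in 31.3% of cells in both libraries. Pericytes (11.7 and 11.5 CPM), endothelial cells (12.6 and 5.96 CPM) and oligodendrocytes (3.78 and 2.58 CPM) came next, and the Dcn class had 0 UMIs in 54 and 39 cells. Nearly every cell of the Aqp4 class held the transcript, 612 of 650, 94.2% (92.1 to 95.8), and 647 of 683, 94.7% (92.8 to 96.3), with median depths of 4434 and 3610 UMIs. The 479 and 582 further astrocytes by the 5-gene list, which fell short of the Aqp4 minimum, held it in 294 and 402 cells, at 520 CPM (486 to 556) and 729 CPM (689 to 771). Oligodendrocytes had a Cxcl14 UMI in 2.88% and 2.13% of cells despite their greater depth. After thinning to 2000 UMIs, the astrocyte share was 79.7% of 585 and 88.1% of 622 cells, and the largest value in a cell was 9 and 10 UMIs. Cxcl14 was thus spread evenly where Cxcl12 was not: the variance over the mean of the thinned UMIs per cell was 1.41 and 1.22 for Cxcl14 in astrocytes and 12.7 and 16.4 for Cxcl12 in endothelial cells. The 5 richest astrocytes held 2.76% and 2.51% of the class's Cxcl14 UMIs.

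**Figure D2:**
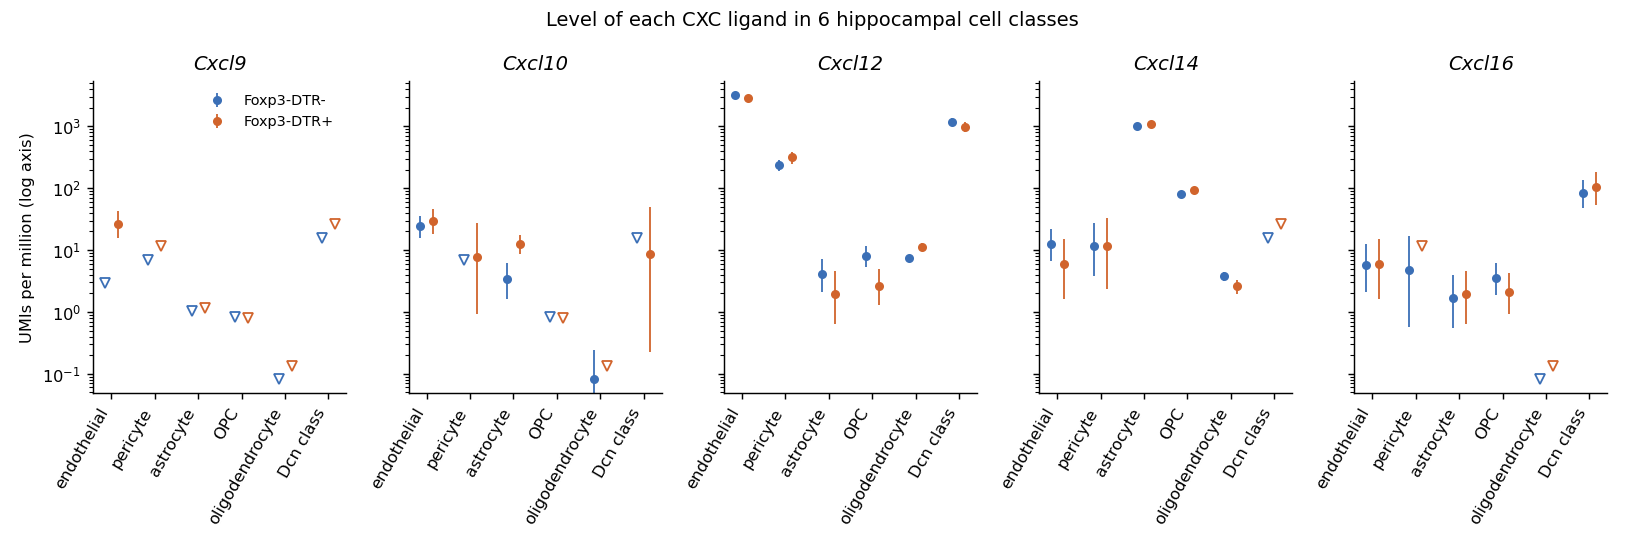
Level in CPM (log axis) of each ligand in 6 hippocampal classes, Foxp3-DTR- in blue and Foxp3-DTR+ in orange. Points have exact 95% counting intervals, and open triangles mark classes with 0 UMIs at the level that 3 counts would give. Cxcl12 stands highest in endothelial cells, Cxcl14 in astrocytes and Cxcl16 in the Dcn class, in both libraries.

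Cxcl10 was rare in the hippocampus and concentrated in few cells. The whole Foxp3-DTR- library held 57 UMIs in 19 of 6863 cells, 0.277% (0.167 to 0.432), and the Foxp3-DTR+ library held 170 UMIs in 14 of 5691 cells, 0.246% (0.135 to 0.412). The number of positive cells was thus as low in one library as in the other. Of the 6 marker classes endothelial cells had the highest level, 24.2 CPM (15.7 to 35.8) from 25 UMIs in 9 cells and 29.8 CPM (18.2 to 46.1) from 20 UMIs in 4 cells. Astrocytes were next, with 3.42 CPM (1.64 to 6.29) from 10 UMIs in 4 cells and 12.6 CPM (8.59 to 17.7) from 32 UMIs in 3 cells. A single astrocyte held 20 of those 32 UMIs and another held 11. Oligodendrocytes held 3 UMIs in 3718 cells and 0 in 2584, and OPCs 0 in both libraries. Some cells with no class had at least 3 UMIs of microglia and macrophage markers. In the Foxp3-DTR- library 4 such cells held 217 CPM (59.2 to 556), all from 4 UMIs in 1 cell. In the Foxp3-DTR+ library 9 such cells held 0 UMIs.

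All 9 Cxcl10-positive endothelial cells of the Foxp3-DTR- library were venous, 10.2% of 88 venous cells (4.78 to 18.5), and none of its 230 capillary, 26 arterial or 139 other endothelial cells was positive. In the Foxp3-DTR+ library 2 of 42 venous cells were positive, with 11 of the 20 UMIs, and 1 capillary cell held 6. With the shorter venous list the Foxp3-DTR- venous level was 150.2 CPM from 24 UMIs, and the Foxp3-DTR+ venous cells had 0 UMIs, so the venous placement in that library depended on Vcam1 and Lcn2.

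Cxcl9 was found in 2 hippocampal cells, both of the Foxp3-DTR+ library, with 38 and 18 UMIs. The Foxp3-DTR- library had 0 UMIs in 6863 cells. The first of these cells held 86 Cxcl10 UMIs as well, which is 50.6% of all Cxcl10 UMIs in its library. It had 2518 UMIs in all, 138 of them from a list of 18 interferon-induced genes, 16 of which were detected. It had 1 Cldn5 UMI and so fell short of the class minimum, but was endothelial by the 5-gene list, and its microglia and macrophage markers were at 0. The second cell was endothelial, with 15 Cldn5 UMIs, 3 Cxcl10 UMIs and 20 UMIs of the interferon-induced list among 5047. Cxcl9 and Cxcl10, the neighbours on chromosome 5, were thus detected together in both Cxcl9-positive cells.

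Summed over a class, cells with a Cxcl10 UMI held more interferon-induced transcripts in endothelial cells and astrocytes, though not in each cell. Over the 18 genes (Ifit1, Ifit3, Isg15, Rsad2, Oasl2, Usp18, Gbp2, Gbp3, Gbp4, Gbp6, Gbp7, Iigp1, Igtp, Irgm1, Irgm2, Psmb8, Psmb9 and Tap1), endothelial cells with a Cxcl10 UMI had 4724 CPM against 2579 CPM in the others of the Foxp3-DTR- library. In the Foxp3-DTR+ library the values were 4266 and 3819 CPM, a smaller gap. The endothelial cells with most Cxcl10 UMIs lay below these class levels, the Foxp3-DTR- cell with 14 UMIs at 1282 CPM of the list and the Foxp3-DTR+ cells with 7 and 6 UMIs at 1403 and 1927 CPM. The Cxcl10-positive pericyte and Dcn-class cell of the Foxp3-DTR+ library, 1 of each, had 0 UMIs of the list, against 239 and 388 CPM in the others of their classes. Endothelial cells held the list at a high level whether or not Cxcl10 was found, since 53.2% and 68.3% of those without it had at least 3 UMIs of the list. Among astrocytes the contrast was wider but rested on few UMIs. The 4 positive cells of the Foxp3-DTR- library held 368 CPM, from 8 UMIs, against 54.4 CPM in the rest. In the Foxp3-DTR+ library the 3 positive cells held 3994 CPM, from 37 UMIs, against 61.8 CPM. Of these positive astrocytes 1 and 2 had at least 3 UMIs of the list. Positive endothelial cells were deeper, at a median of 3119 UMIs against 1994 and 2089 against 1626, and the part of depth in these gaps was not tested.

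**Figure D3:**
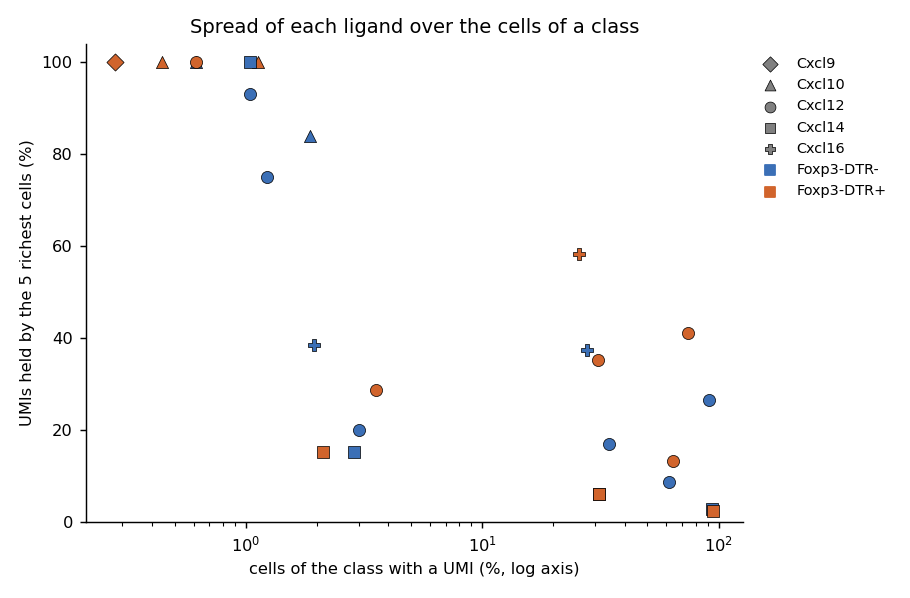
Share of cells of a class with a UMI (%, log axis) against the share of the gene's UMIs held by its 5 richest cells (%), for each class and library with at least 10 UMIs of the ligand. Symbols mark the gene and colours the library. Cxcl14 in astrocytes sits at the lower right, while Cxcl9 and Cxcl10 sit at the upper left with few positive cells.

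Among the 6 marker classes Cxcl16 was highest in the Dcn class, at 84.9 CPM (48.5 to 138) from 16 UMIs and 105 CPM (54.5 to 184) from 12 UMIs. A UMI was found in 15 of its 54 cells, 27.8% (16.5 to 41.6), and in 10 of 39, 25.6% (13.0 to 42.1), with at most 2 UMIs in a cell. Oligodendrocytes, the deepest class, had 0 UMIs in 3718 and in 2584 cells. The Dcn class level was 14.6 and 17.7 times that of endothelial cells, which held 5.82 and 5.96 CPM. Endothelial cells, OPCs (3.58 and 2.13 CPM), pericytes (4.69 and 0 CPM) and astrocytes (1.71 and 1.96 CPM) were not separated by their intervals. Among cells with no class, those with at least 3 UMIs of choroid plexus markers (Kl, Folr1, Clic6, Kcne2) held 5 Cxcl16 UMIs in 178 cells, 6.09 CPM (1.98 to 14.2), and 26 UMIs in 42 cells, 145 CPM (94.7 to 212). The latter level stood above that of the Dcn class in the same library, with overlapping intervals. In the Foxp3-DTR+ library 3 of these cells held 10, 9 and 5 UMIs. All cells with no class held 35 of that library's 64 Cxcl16 UMIs.

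Between genotypes, Cxcl12 and Cxcl14 differed little in their main classes. With 1 library per genotype there is no test, and a gene is counted as different when it has at least 20 UMIs over both libraries and a level at least 2-fold apart. In endothelial cells Cxcl12 had a log2 ratio (Foxp3-DTR+ over Foxp3-DTR-) of -0.12 (-0.20 to -0.04), a level 0.919 times as high. Cxcl10 there had a log2 ratio of 0.30 (-0.63 to 1.21). This value depended on the class rule: it was 2.74 (2.10 to 3.43) by the 5-gene lists and 2.75 (2.11 to 3.44) with a minimum of 1 Cldn5 UMI, both of which take in the cell with 86 UMIs, and -0.68 (-2.16 to 0.62) in cells with at least 1000 genes. Of the 5 members 2 reached 20 UMIs in endothelial cells and 0 were 2-fold apart, where 2.58% of 7752 genes were 2-fold higher and 2.76% 2-fold lower. In astrocytes Cxcl14 had a log2 ratio of 0.15 (0.07 to 0.22), and 1 of 2 members was 2-fold higher, Cxcl10 at 1.88 (0.82 to 3.07), beside 1.46% of 10982 genes higher and 1.47% lower. That ratio rests on 4 and 3 positive cells.

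In the Dcn class Cxcl16 had a log2 ratio of 0.31 (-0.90 to 1.48) and Cxcl12 of -0.27 (-0.61 to 0.07). These were the 2 members with 20 UMIs there and 0 were 2-fold apart, against 3.34% of 2517 genes higher and 5.24% lower. In pericytes Cxcl12, the single member with 20 UMIs, had 0.42 (-0.01 to 0.86) and was not 2-fold apart, against 2.25% higher and 4.89% lower of 5194 genes. In OPCs 1 of 3 members was 2-fold lower, Cxcl12 at -1.58 (-2.78 to -0.50) with 29 and 10 UMIs, beside 1.21% higher and 1.34% lower of 12807 genes. A single Foxp3-DTR- cell held 51.7% of those 29 UMIs. In oligodendrocytes 0 of 2 members were 2-fold apart, Cxcl12 at 0.63 and Cxcl14 at -0.55, beside 1.71% higher and 1.55% lower of 14483 genes.

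Over whole libraries 2 of the 5 members were 2-fold higher and 0 lower, against 2.55% and 1.75% of 18128 genes. Cxcl10 had a log2 ratio of 2.13 (1.69 to 2.59), and the cell described above held 86 of the 170 Foxp3-DTR+ UMIs. Cxcl9, with 0 against 56 UMIs, was at least 27.4-fold higher when the empty library is set at 3 counts, a bound that rests on 2 cells. Cxcl14 had 0.63 (0.57 to 0.69) over whole libraries against 0.15 in astrocytes. Astrocytes were 9.47% of cells in the Foxp3-DTR- library and 12% in the Foxp3-DTR+ library, and in such sums more cells of a type and more RNA per cell cannot be told apart.

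**Figure D4:**
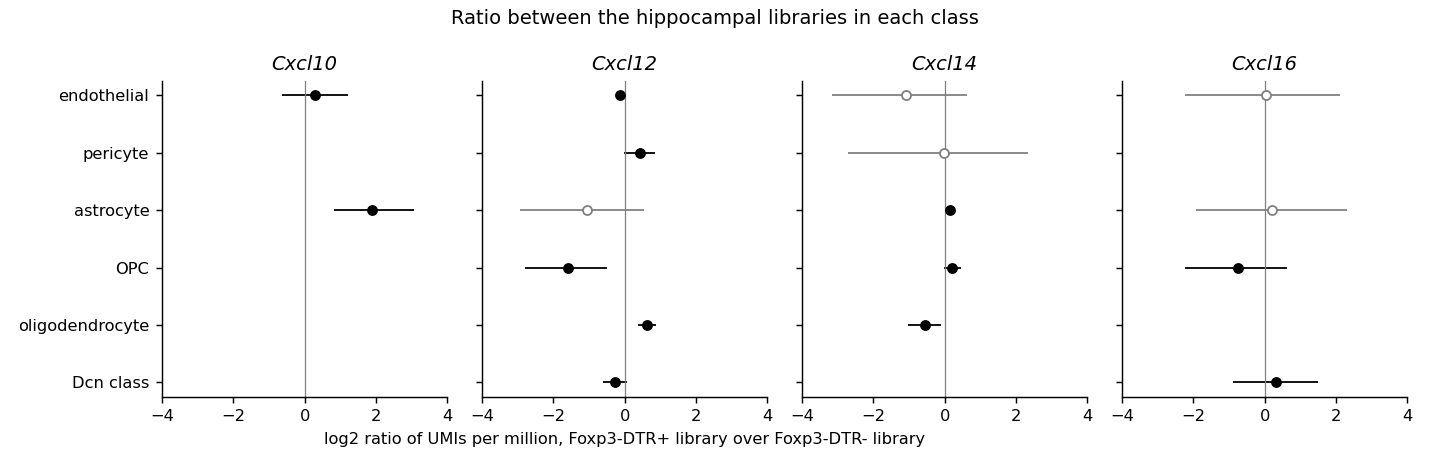
Log2 ratio of CPM, Foxp3-DTR+ over Foxp3-DTR-, for 4 ligands in 6 classes, with exact 95% counting intervals. Filled points have at least 20 UMIs over both libraries, open points fewer, and classes with 0 UMIs in a library are not drawn. Cxcl12 in endothelial cells and Cxcl14 in astrocytes lie at -0.12 and 0.15.

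Of the other genes of the pathway, the ligands Cxcl1 and Cxcl2, which attract neutrophils, were found in vessels. In endothelial cells Cxcl1 was 50.4 CPM (37.6 to 66.1) and 116 CPM (91.9 to 145), a log2 ratio of 1.21 (0.68 to 1.74), and 1 cell held 44.9% of the Foxp3-DTR+ UMIs. In pericytes Cxcl1 went the other way, 286 CPM from 122 UMIs against 69.0 CPM from 18 UMIs. Cxcl11, the third Cxcr3 ligand, was 60.1 and 65.6 CPM in endothelial cells. Ackr1, a venular chemokine scavenger, was 55.3 and 106 CPM there, with 46.5% of the latter in 1 cell. Of 10 other ligands 4 reached 20 UMIs in endothelial cells and 2 were 2-fold higher, where 2.58% of all genes were. These were Cxcl1 and the platelet chemokine Pf4, with 9 and 12 UMIs (log2 1.04, -0.33 to 2.46), while Cxcl2 was 23.3 and 43.2 CPM (log2 0.89). Of 8 receptors 2 did and 0 were 2-fold apart. Differences in the other ligands were not limited to vessels. A single one reached 20 UMIs in oligodendrocytes and a single one in astrocytes. Each was 2-fold higher, at log2 6.23 and 1.20, beside 1.71% of 14483 and 1.46% of 10982 genes. Over whole libraries 6 of the 10 reached 20 UMIs, 3 of them 2-fold higher and 1 lower, beside 2.55% and 1.75% of 18128 genes. Ackr3, the Cxcl12 scavenger, was found in pericytes (169 and 165 CPM), endothelial cells (66.9 and 56.7 CPM) and OPCs (47.9 and 42.1 CPM). Cxcr4, the signalling receptor for Cxcl12, was sparse, with 110 and 71 UMIs in whole libraries.

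Of 10 genes upstream of Cxcl9 and Cxcl10, 0 were 2-fold apart in endothelial cells, where 2.58% of 7752 genes were higher and 2.76% lower. Their median log2 ratio was 0.12 beside 0.04 over all genes. Irf7, an interferon-induced transcription factor, was 129 and 216 CPM, a log2 ratio of 0.75 (0.40 to 1.10). Of the 18 interferon-induced genes 17 reached 20 UMIs in endothelial cells and 15 had a ratio above 0. Their median was 0.69 beside 0.04 over all genes, and 0 of them were 2-fold apart, beside the same shares of all genes. The guanylate-binding protein gene Gbp7, for one, was 192 and 349 CPM. In oligodendrocytes 9 of the 10 listed genes with 20 UMIs were above 0 (median 0.75), and 4 were 2-fold higher, beside 1.71% of all genes. In OPCs 7 of 9 were above 0 (median 0.60), and 2 were 2-fold higher, beside 1.21%. In astrocytes 4 of 6 were above 0 (median 0.24), and 2 were 2-fold higher, beside 1.46%. In pericytes 0 of 2 were above 0 (median -0.79).

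Across the 12 sums of a class and a library, other genes varied in a similar way. They were ranked by Pearson's r of log2(CPM + 10) over 6881 genes, as a description, since the sums share libraries and depth. Cxcl12 was most like Ahnak, Tmem140 and Rnase4 (r = 0.99 each). Cxcl14 was most like Chst10, Baalc and Acss1 (r from 0.98 to 0.99), all highest in astrocytes. Cxcl16 was most like Clmp, Inmt and Aox3 (r from 0.98 to 0.99), all highest in the Dcn class, the only class where Cxcl16 exceeded 10 CPM. Cxcl10 was most like Adgrl2, mt-Rnr2 and Hdac7 (r from 0.90 to 0.94). It exceeded 10 CPM only in endothelial cells and in astrocytes of the Foxp3-DTR+ library, so these r values say little about the order of the other classes. Cxcl9 was most like Sele (r = 0.97), the endothelial adhesion molecule E-selectin, and then Sp110 and mt-Tc, with a single sum above 0.

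In the meninges Cxcl12 was again highest in barcodes led by endothelial and fibroblast markers. After assignment to the hashtag, 1964 cells of replicate 1 and 4430 of replicate 2 remained (median 3119.5 and 1738 UMIs), of which 1794 and 4265 had more T-cell marker UMIs (Cd3d, Cd3e, Cd3g, Trac, Cd4) than those of any other type. Of all Cxcl12 UMIs, 94.4% of 766 in replicate 1 and 88.2% of 34 in replicate 2 lay outside T cells. Barcodes led by fibroblast markers held Cxcl12 at 1072 CPM (979.5 to 1171) in 72 cells of replicate 1, with a UMI in 69.4% of them, and those led by endothelial markers held 1213 CPM (975.3 to 1491) in 7 cells. In replicate 2 the values were 1141 CPM in 4 cells and 833 CPM in 10 cells, the first from 11 UMIs in 1 cell. T cells held 6.45 CPM in replicate 1 and 0.442 CPM in replicate 2. These stromal barcodes lay within a gate set on CD4+ T cells.

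Cxcl14 had 69 UMIs in replicate 1, 68.1% of them in fibroblast-led barcodes (102 CPM, 74.9 to 136), and 1 UMI in replicate 2, also in such a barcode. Cxcl16 had 109 UMIs in replicate 1, 68.8% in myeloid-led barcodes (128 CPM, 101 to 161, in 54 cells), and 16 UMIs in replicate 2, of which 5 lay in 59 myeloid-led barcodes. T cells held 11 and 10 Cxcl16 UMIs, 1.65 and 1.10 CPM, with a UMI in 0.557% and 0.234% of cells. Cxcl9 had 24 and 13 UMIs, 12 and 4 of them in myeloid-led barcodes and 9 and 9 in T cells. In replicate 1 a single barcode outside the T cells held 9 of the 24 Cxcl9 UMIs. The 5 richest Cxcl16 barcodes of replicate 1, with 22, 14, 10, 7 and 7 UMIs, had hashtag counts 2.06 to 3.72 times the next. They also held 14 to 74 T-cell marker UMIs, and the one with 10 Cxcl16 UMIs is the barcode with 9 Cxcl9 UMIs. A barcode can hold more than 1 cell, and the part of this in these levels was not tested.

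Of the Cxcl10 UMIs, 79.4% of 686 in replicate 1 and 96.2% of 131 in replicate 2 lay in T cells, which were 91.3% and 96.3% of the cells. In replicate 1 the other barcodes held Cxcl10 at a higher level, 115 CPM (97.1 to 136), with a UMI in 20.6% of them, and in replicate 2 they held 13.5 CPM (4.37 to 31.4). A UMI was found in 125 of 1794 T cells, 6.97% (5.83 to 8.25), and in 77 of 4265, 1.81% (1.43 to 2.25). The levels were 81.8 CPM (75.1 to 89.0) and 13.9 CPM (11.6 to 16.6). Fibroblast-led barcodes of replicate 1 held 226 CPM (184 to 273). As in the sums of hippocampal endothelial cells and astrocytes, positive T cells together held more of the interferon-induced list. In replicate 1 its level was 4428 CPM where Cxcl10 was found and 2586 CPM in the other T cells. In replicate 2 these levels were 4299 and 2428 CPM. Positive T cells were also deeper, at a median of 4053 against 3052 UMIs and 2455 against 1735. Cxcl9 was found with Cxcl10 in 1 of 7 Cxcl9-positive T cells of replicate 1 and 0 of 8 of replicate 2.

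The hashtag margin, the counts of a cell's hashtag over the next one, moved with Cxcl10 in replicate 1. There, 251 T cells at a margin of 2 to 5 held 405 of the 545 T-cell UMIs, 265 CPM (240 to 292), while 1440 T cells at a margin of 20 or more held 28.0 CPM (23.4 to 33.2). The 5 richest T cells, with 58, 48, 45, 37 and 31 UMIs, all had margins under 5. In replicate 2 the corresponding levels were 12.2 CPM (8.42 to 17.0) in 974 cells and 16.1 CPM (12.6 to 20.1) in 2537 cells. A low margin can mark a barcode with cells of more than 1 sample, and the low-margin cells of replicate 1 were deeper, at a median of 5349 against 2889 UMIs. The part of mixed barcodes in the Cxcl10 level was not tested.

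Regulatory T cells were taken as T cells with a Foxp3 UMI, 202 in replicate 1 and 694 in replicate 2. They were deeper than the T cells without one, at a median of 4458 against 2999 UMIs and 1997 against 1708. A regulatory T cell whose Foxp3 was not captured falls among the others. In replicate 1 Cxcl10 was 194 CPM (169 to 221) in cells with a Foxp3 UMI and 59.6 CPM (53.3 to 66.3) in those without, a log2 ratio of 1.70 (1.45 to 1.95). In replicate 2 it was 17.8 CPM (12.2 to 25.2) and 13.0 CPM (10.5 to 15.8), a log2 ratio of 0.46 (-0.17 to 1.05). At a margin of at least 5, the ratio of replicate 1 turned to -0.54 (-1.70 to 0.43), from 9 and 131 UMIs, while replicate 2 stood at 0.77 (-0.00 to 1.49). At a margin of at least 20 the ratios were -0.35 (-1.69 to 0.74) and 0.96 (0.08 to 1.76). Once low-margin cells were left out, the ratio was thus below 0 in replicate 1 and above 0 in replicate 2. The replicate 1 intervals took in 0 and overlapped those of replicate 2, so its direction was not settled. Cells with a Foxp3 UMI made up 35.1% of the T cells at a margin of 2 to 5 in replicate 1 and 6.25% of those at 20 or more.

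**Figure D5:**
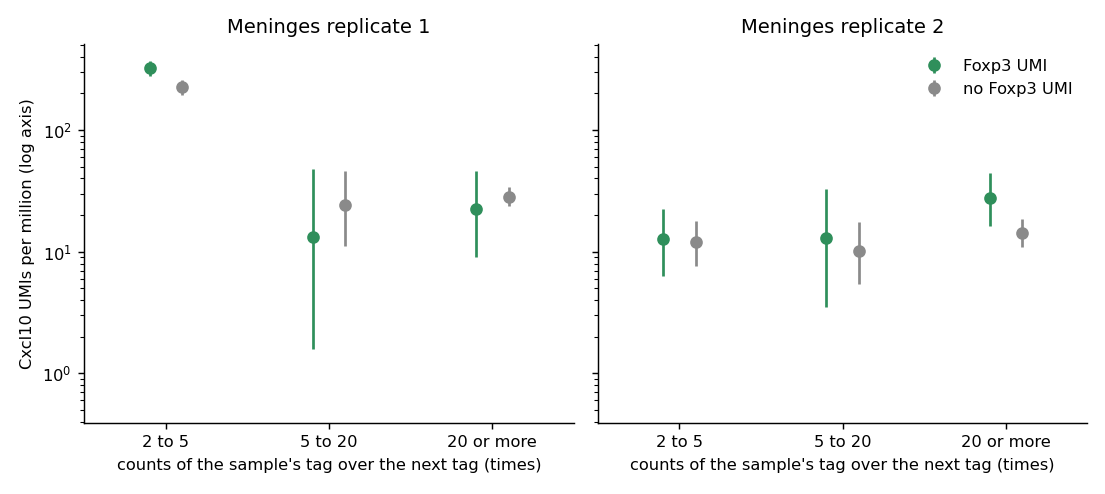
Cxcl10 level in CPM (log axis) in meningeal T cells with a Foxp3 UMI (green) and without (grey), split by how many times the sample's hashtag exceeded the next, in each replicate. Bars are exact 95% counting intervals. Only the 2 to 5 bin of replicate 1 stands high, at 321 and 225, and no other bin exceeds 28.4.

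Across all genes the edgeR quasi-likelihood test, fitted without the replicate number, called 0 of 11040 genes between T cells with and without a Foxp3 UMI (0% at an adjusted p below 0.05). Unadjusted p-values lay below 0.05 for 299 genes. DESeq2 called 25, or 0.226%, and edgeR with no filter on low counts called 155 of 21785, or 0.711%. With the replicate as a block edgeR called 626, or 5.67%. Both sums of a replicate, with and without Foxp3, came from 1 library, and their deviations from the group means correlated (r = 0.79). The fit without the block leaves this shared difference in its error, so its 0 calls do not show that the groups are alike. Of the 5 members 2 passed the filter on low counts, Cxcl10 and Cxcl12. Their edgeR log2 ratios without the block were 1.54 and 0.75, and this contrast had been used to choose the members. Of the 31 other pathway genes 20 were tested and 0 were called without the block, with a median log2 ratio of 0.13 beside -0.01 over all genes.

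With the block, 6 of the 20 were called, 4 higher and 2 lower, beside 5.67% of all genes. From 4 sums this fit left 1 residual degree of freedom to judge how far the replicates differ in the Foxp3 ratio. A call by the blocked fit therefore does not show that a gene differs in both replicates, and the levels of each replicate are given. The blocked fit was not run at higher hashtag margins or in thinned cells. The receptor of Cxcl16, Cxcr6, fell in cells with a Foxp3 UMI, from 576 to 271 CPM in replicate 1 and from 591 to 269 CPM in replicate 2 (log2 -1.13). This receptor was also the single pathway gene called by DESeq2. Cxcr3, the receptor of Cxcl9 and Cxcl10, fell from 385 to 329 CPM and from 361 to 282 CPM (log2 -0.31). Cxcr4, the receptor of Cxcl12, rose with a log2 ratio of 0.84 in the blocked fit. Its levels were 20.3 and 48.9 CPM in replicate 1 but 7.72 and 7.81 CPM in replicate 2, a difference seen in replicate 1 alone. The others called higher were the neutrophil chemokine Cxcl2, the interferon-gamma receptor subunit Ifngr1 and the NF-kB inhibitor Nfkbia. Cxcl2 was 9.90 and 47.1 CPM in replicate 1 and 2.34 and 29.5 CPM in replicate 2. Ifngr1 was 653 and 1002 CPM, then 824 and 951 CPM. Nfkbia was 541 and 1013.5 CPM, then 455 and 726 CPM, higher with Foxp3 in both replicates.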

How the data were processed

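The deposited gene tables of 4 libraries hold unnormalized UMI counts, which, per the file headers, the authors made with Cell Ranger (4.0.0 for the first meningeal replicate, 6.0.0 for the second, 6.1.0 for the hippocampus). The submitters' processing notes name mm10 and Seurat. The deposited hashtag tables hold counts, and T-cell receptor tables were not used here. For replicate 1 the label's hashtag name and sequence disagree with the table, and the name decided, so the sample these cells came from is not certain. The members and gene lists were chosen with earlier results of these data known. The named genes were the 5 members in every class and library, with fixed lists of pathway, interferon-induced and vessel-zone genes and, for each member, the 3 genes most like it across classes.

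Cells needed 500 genes and under 15% (hippocampus) or 10% (meninges) mitochondrial UMIs. Scrublet (Scanpy 1.11.5) removed 242 and 158 hippocampal doublets. Doublets were not called in the meninges. A meningeal cell needed 10 counts of its hashtag and 2 times the next. Counts were summed per class (CPM), with Poisson, Clopper-Pearson and conditional binomial 95% intervals. Sums of T cells with and without a Foxp3 UMI were tested with edgeR 4.0.16 (TMM, filterByExpr, Benjamini-Hochberg) in R 4.3.3, with DESeq2 1.42.0 as an alternative. The edgeR fit without the block was also run on simulated data. Those data had no difference between replicates, so they cannot show how the fit handles the one present here. Deviations from the group means correlated between both sums of a replicate (r = 0.79, rho = 0.62 over 11040 genes). Cells are not replicates.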

Additional observations from a re-analysis of the deposited data

Results flagged for a closer look

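In the same contrast of genotypes, some classes went opposite ways with counting intervals that exclude 0. Cxcl12 had a log2 ratio (Foxp3-DTR+ over Foxp3-DTR-) of 0.63 (0.37 to 0.88) in oligodendrocytes, from 270 and 261 UMIs. It had -0.12 (-0.20 to -0.04) in endothelial cells, from 3294 and 1967 UMIs. In OPCs it had -1.58 (-2.78 to -0.50), from 29 and 10 UMIs. Cxcl14 had 0.15 (0.07 to 0.22) in astrocytes, from 2931 and 2825 UMIs, and -0.55 (-1.02 to -0.10) in oligodendrocytes, from 138 and 59 UMIs. The differences between classes were not tested, since each genotype is 1 library.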

How the results depend on the processing

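In their main classes Cxcl12 stayed below 0 in all 9 alternatives (log2 -0.28 to -0.031) and Cxcl14 above 0 in all 9 (0.09 to 0.23). These are point values. The Cxcl12 interval took in 0 with doublets kept (-0.14 to 0.02) and in cells thinned to 2000 UMIs (-0.24 to 0.02). The Cxcl14 interval took in 0 with at least 4 UMIs of the class marker (-0.01 to 0.18). Cells with at least 1000 genes gave -0.28 for Cxcl12 and -0.68 for Cxcl10, and equal cell weights gave -0.031 for Cxcl12. Thinning to 2000 UMIs gave 0.23 for Cxcl14. With 1 marker UMI or the 5-gene lists, endothelial Cxcl10 moved from 0.30 to 2.75 and 2.74, and the Cxcl9 bound from 3.21 to 4.86 and 4.85 (log2), because the cell with 86 Cxcl10 UMIs then counts as endothelial. Without the 5 richest cells Cxcl10 had 4 and 0 endothelial UMIs and gave no ratio, nor did Cxcl9. Cxcl16 in the Dcn class ranged from -0.23 to 0.51, above 0 in 6 of 9. The Foxp3 comparison called 626 genes with the replicate block, 25 with DESeq2 and 155 without a count filter. Among pathway genes these settings called 6, 1 and 3. At margins of 5 or 20 and in thinned cells both edgeR counts, without the block, were 0, with 438, 453 and 279 genes at an unadjusted p below 0.05. A single replicate allowed no test of the Foxp3 comparison. Cxcl10 there had a log2 ratio of 1.35 with the block and 1.4996 with no filter, and -0.034 at a margin of 5. Leaving out a replicate gave 0.46 to 1.70. These are a description, since this contrast helped to choose the members. Cxcl16 ranged from -0.99 to 0.02 when a replicate was left out, where few UMIs allowed no other fit but the one with no filter. The mean T-cell share with a Cxcl16 UMI was 0.396%, and 0.126% in thinned cells. The shorter venous list took venous Cxcl10 in the Foxp3-DTR+ library from 112 to 0 CPM. Where no cause is named, the cause was not tested.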
